A study of Mus musculus with 12 samples.

Results

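Collagen genes were followed through the first 4 days of differentiation of mouse induced pluripotent stem cells (iPSCs, body cells reprogrammed to a state from which every tissue can form). A gene was taken as a collagen gene where its only symbol consisted of Col, a number, the letter a and a number, and where several probe sets measured it, the one with the highest mean over all arrays was used. This gave 44 collagen genes of 19938 genes with a single symbol, from 46 probe sets, with Col6a5 and Col6a6 the genes that had several. All 44 were tested, without a filter on dim genes. RNA of 12 samples was hybridised to 1-colour Affymetrix gene arrays, 3 arrays in each of 4 groups. The first group, called sorted CPC here, was cells enriched for cardiac progenitor cells by sorting for FLK1 and PDGFRα on day 4. The second, cardiac, was the unsorted cells of an optimised cardiac differentiation on day 4, and the third, spontaneous, was cells left to differentiate spontaneously until day 4. The last group was undifferentiated iPSCs on day 0, which the series design names as the control. All groups derive from mouse iPSCs with no mutation or transgene named in the labels, and the labels do not say whether the 3 samples of a group were grown separately, so a p-value here reflects how far these samples scatter, and that scatter may be technical.

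Collagens are secreted proteins whose chains wind around one another into a rigid helix. Fibrillar collagens form the fibres of connective tissue, type IV collagen forms the sheet of basement membranes under epithelia, type VI forms beaded filaments, and the fibril-associated, short-chain, transmembrane and multiplexin collagens decorate fibres, build lattices, span the cell membrane or carry large side chains. In the early embryo the first collagen laid down in quantity is the type IV collagen of basement membranes, while abundant fibrillar collagen is the product of mesenchyme and fibroblasts. The 44 genes comprised 11 fibrillar, 6 basement membrane, 6 beaded filament, 3 short-chain, 9 fibril-associated, 4 transmembrane and 2 multiplexin genes, and 3 others, which were the anchoring fibril gene Col7a1, Col26a1 and Col28a1. The fibril-associated gene Col21a1 had no matching symbol and was not analysed here.

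Promoter windows are shown for Col1a2, the collagen gene with the clearest difference between groups, and for the neighbours Col4a1 and Col4a2, whose signals moved together from array to array. Each window runs from 250 bases before to 50 bases after a transcript start of RefSeq on build GRCm38.p6, and 35 of the 44 genes had such a window. The Col1a2 window lies at chr6:4505368-4505667 on the plus strand, and its capitals mark CCAAT and GGGCGG motifs, read on either strand.
Col1a2: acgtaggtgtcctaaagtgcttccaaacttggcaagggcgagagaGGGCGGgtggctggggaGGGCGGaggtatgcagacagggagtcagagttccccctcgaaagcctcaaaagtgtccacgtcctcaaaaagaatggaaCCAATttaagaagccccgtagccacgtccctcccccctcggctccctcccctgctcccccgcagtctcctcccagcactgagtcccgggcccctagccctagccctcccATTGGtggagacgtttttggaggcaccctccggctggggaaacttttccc
It held 2 CCAAT and 2 GGGCGG motifs, none overlapping another, and no TATAAA motif. The CCAAT motif was present on either strand in 37.4% of all 32851 windows and in 13 of the 38 collagen windows (34.2%), GGGCGG in 35.7% of all windows and 23 of the collagen windows (60.5%), and TATAAA in 13.6% and 5 of them (13.2%). The Col4a1 window lies at chr8:11312777-11313076 on the minus strand and the Col4a2 window at chr8:11312555-11312854 on the plus strand. Both are printed 5′ to 3′ on their own strand, and the capitals mark the bases that they share.
Col4a1: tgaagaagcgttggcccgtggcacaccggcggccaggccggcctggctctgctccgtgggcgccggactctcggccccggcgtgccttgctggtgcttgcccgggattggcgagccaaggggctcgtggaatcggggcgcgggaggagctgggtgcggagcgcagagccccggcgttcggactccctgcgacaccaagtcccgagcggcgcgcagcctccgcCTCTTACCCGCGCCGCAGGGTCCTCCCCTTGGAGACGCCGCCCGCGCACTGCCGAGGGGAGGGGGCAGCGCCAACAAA
Col4a2: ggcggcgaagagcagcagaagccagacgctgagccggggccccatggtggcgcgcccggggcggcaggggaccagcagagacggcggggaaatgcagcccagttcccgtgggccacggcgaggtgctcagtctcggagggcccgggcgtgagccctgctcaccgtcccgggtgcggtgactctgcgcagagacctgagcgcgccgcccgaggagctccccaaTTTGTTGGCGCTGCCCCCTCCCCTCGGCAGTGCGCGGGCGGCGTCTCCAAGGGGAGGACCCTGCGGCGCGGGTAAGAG
The genes are read in opposite directions from starts 21 bases apart, so that 78 bases, chr8:11312777-11312854, belong to both windows. A motif match describes these letters only.

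The values are log2 signals, on which a difference of 1 is a doubling, and each gene was tested with limma in 1 fit of all arrays. A gene was called higher or lower at a Benjamini-Hochberg adjusted p under 0.05, taken over all 19938 genes, together with a log2 difference of at least 1. Bulk RNA cannot tell fewer cells that make a transcript from less transcript per cell. As a check of the labels, Kdr, which encodes FLK1, read 10.23, 6.25 and 6.03 on the sorted CPC arrays, 5.42, 10.81 and 9.01 on the cardiac arrays, 9.83, 10.71 and 10.27 on the spontaneous arrays and 5.50, 5.54 and 5.78 on the day 0 arrays. The libraries labelled sorted CPC replicates 2 and 3 and cardiac replicate 1 thus lay near day 0 for a gene that the sort selects, and counts and calls that changed when these 3 libraries were left out are given both ways below. Sorted CPC is then 1 array, assumed to vary like the other groups. Calls against day 0 then rose over all genes too, so added calls in a list are not particular to that list. Without cardiac replicate 1 alone, 393 genes of all were called higher and 260 lower in cardiac cells, against 251 and 188 with it. Pdgfra, which encodes the other sorted receptor, read 11.13, 8.47 and 8.29 on the sorted CPC arrays, 9.42, 10.26 and 9.60 on the cardiac arrays, 10.35, 9.996 and 9.71 on the spontaneous arrays and 8.75, 9.14 and 8.81 on the day 0 arrays. Pou5f1, the pluripotency factor, averaged 10.88 ± 0.45 on sorted CPC arrays, 10.78 ± 0.20 on cardiac arrays, 10.24 ± 0.42 on spontaneous arrays and 11.37 ± 0.18 on day 0 arrays (SD, n = 3 each).

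Of the 44 collagen genes, 1 changed by this test, the type I collagen chain Col1a2. It was lower in cardiac cells and in spontaneously differentiated cells than in iPSCs, and no collagen gene was called higher in any comparison. Against day 0, limma called 0 collagen genes in sorted CPC, with 3 at an unadjusted p under 0.05 (6.82%, against 19.3% of all genes). In cardiac cells 1 was called lower, with 12 at that unadjusted level (27.3%, against 22.4%), and in spontaneous cells 1 was called lower, with 7 (15.9%, against 24%). Over all genes, 1.32% were called lower in sorted CPC, 0.943% in cardiac cells and 1.57% in spontaneous cells, and 0.787%, 1.26% and 1.99% were called higher, so 0, 1 and 1 of 44 are near the background. Without the 3 libraries that stood apart 1 collagen gene, Col18a1, was called lower in sorted CPC, where 3.14% of all genes were. With no size minimum the count was 1 of 44, Col1a2, in each comparison, where 5.11% of all genes passed in sorted CPC, 6.17% in cardiac cells and 9.75% in spontaneous cells. A moderated F test over the 4 groups also passed 1 of the 44, Col1a2 (adjusted p = 0.02), where 5.86% of all genes passed.

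The remaining differences were small. The 95% interval of the difference from day 0 lay within 1 log2 unit on either side of 0 for 40 of the 44 genes in sorted CPC, 39 in cardiac cells and 42 in spontaneous cells, against 90.1%, 89.6% and 87.6% of all genes. The median collagen difference from day 0 was 0.02 in sorted CPC, -0.24 in cardiac cells and -0.11 in spontaneous cells, where the medians of all genes were 0.03, -0.05 and -0.03. Differences from day 0 were negative for 19 of 44 collagen genes in sorted CPC (43.2%, against 45.1% of all genes), 40 in cardiac cells (90.9%, against 58.2%) and 35 in spontaneous cells (79.5%, against 56.2%). All 3 cardiac arrays lay below all 3 day 0 arrays for 23 collagen genes, where this held for 16.2% of all genes, and all 3 spontaneous arrays did so for 17, where it held for 21.6%. In sorted CPC it held for 3, Col1a1, Col1a2 and Col3a1, where it held for 11.3% of all genes. All 3 arrays lay above all day 0 arrays for 0 collagen genes in sorted CPC (10.2% of all genes), 0 in cardiac cells (12.8%) and 1 in spontaneous cells (19.4%). The 3 comparisons with day 0 share the same day 0 arrays. With arrays centred on their medians, quantile normalised again or normalised by cyclic loess, the collagen median stayed positive in sorted CPC (0.03, 0.04 and 0.02) and negative in cardiac cells (-0.22, -0.22 and -0.19) and spontaneous cells (-0.09, -0.12 and -0.09). The sign in sorted CPC rested on single arrays. The sorted median was -0.05 without sorted CPC replicate 1, -0.09 without replicate 3, -0.0018 without day 0 replicate 3 and 0.16 without sorted CPC replicate 2, and it was 0.11 without the 3 libraries that stood apart. The cardiac median was -0.14 without cardiac replicate 2.

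**Figure D1:**
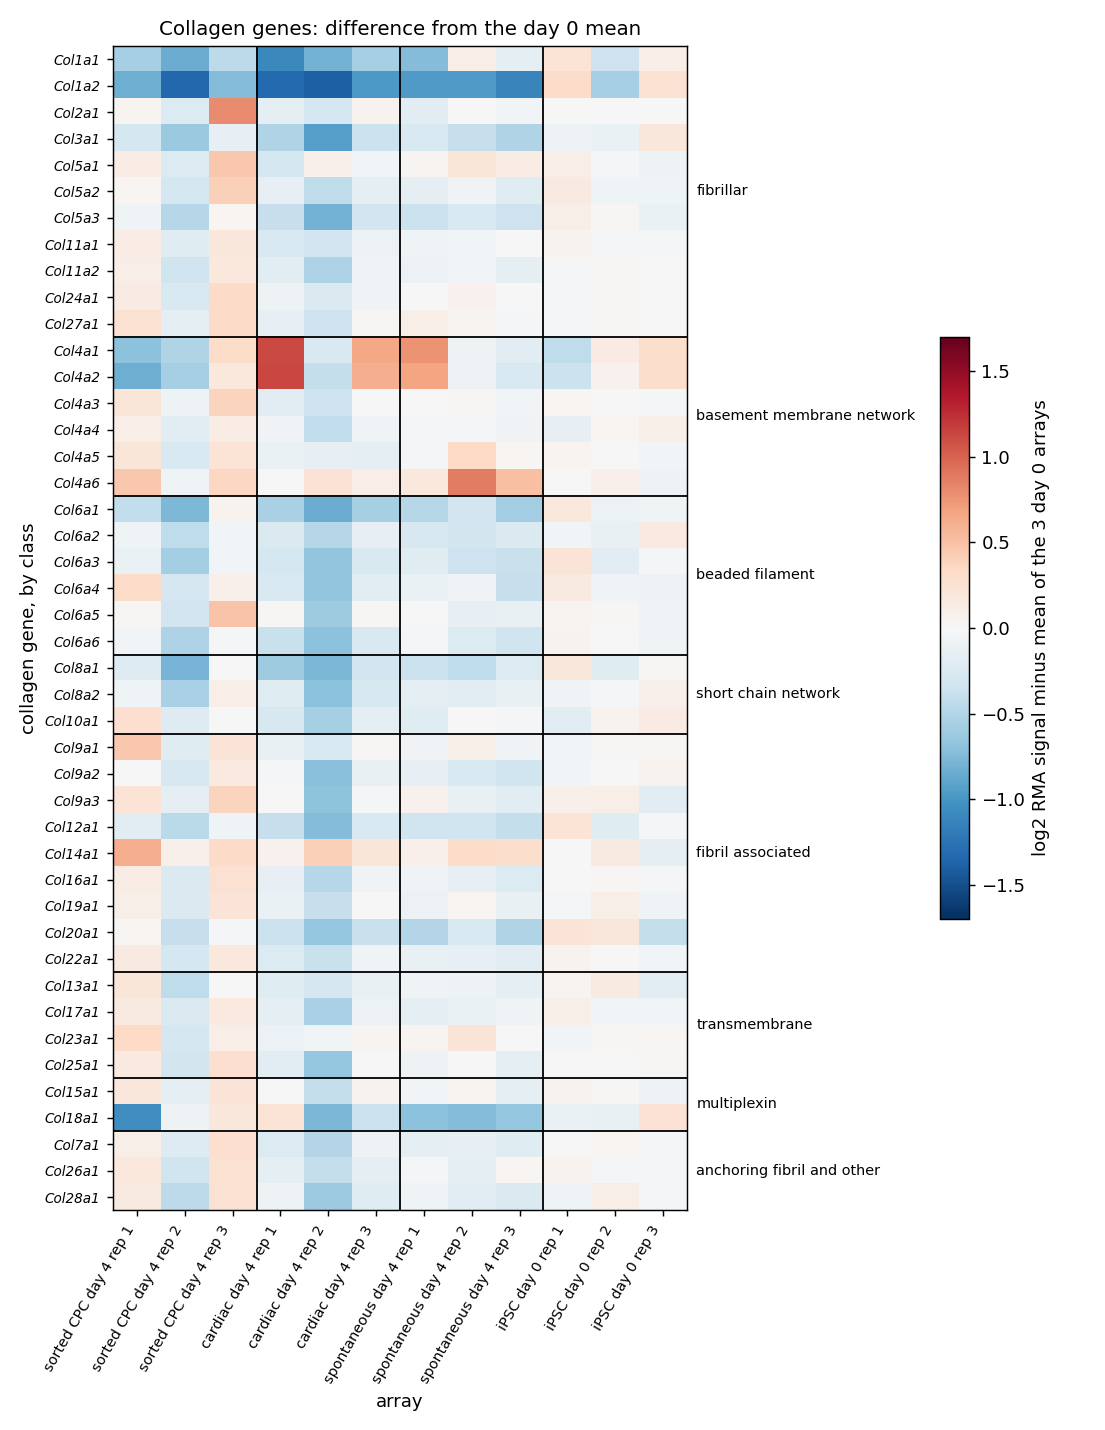
Each row is a collagen gene, by class, and each column an array, and the colour is the log2 RMA signal minus the mean of the 3 day 0 arrays, from blue (lower) through white (0) to red (higher). Col1a2 is blue on all 9 arrays of day 4. Col4a1 and Col4a2 are most red on cardiac replicate 1, spontaneous replicate 1 and cardiac replicate 3, and the column of cardiac replicate 2 is blue in nearly every class.

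**Figure D2:**
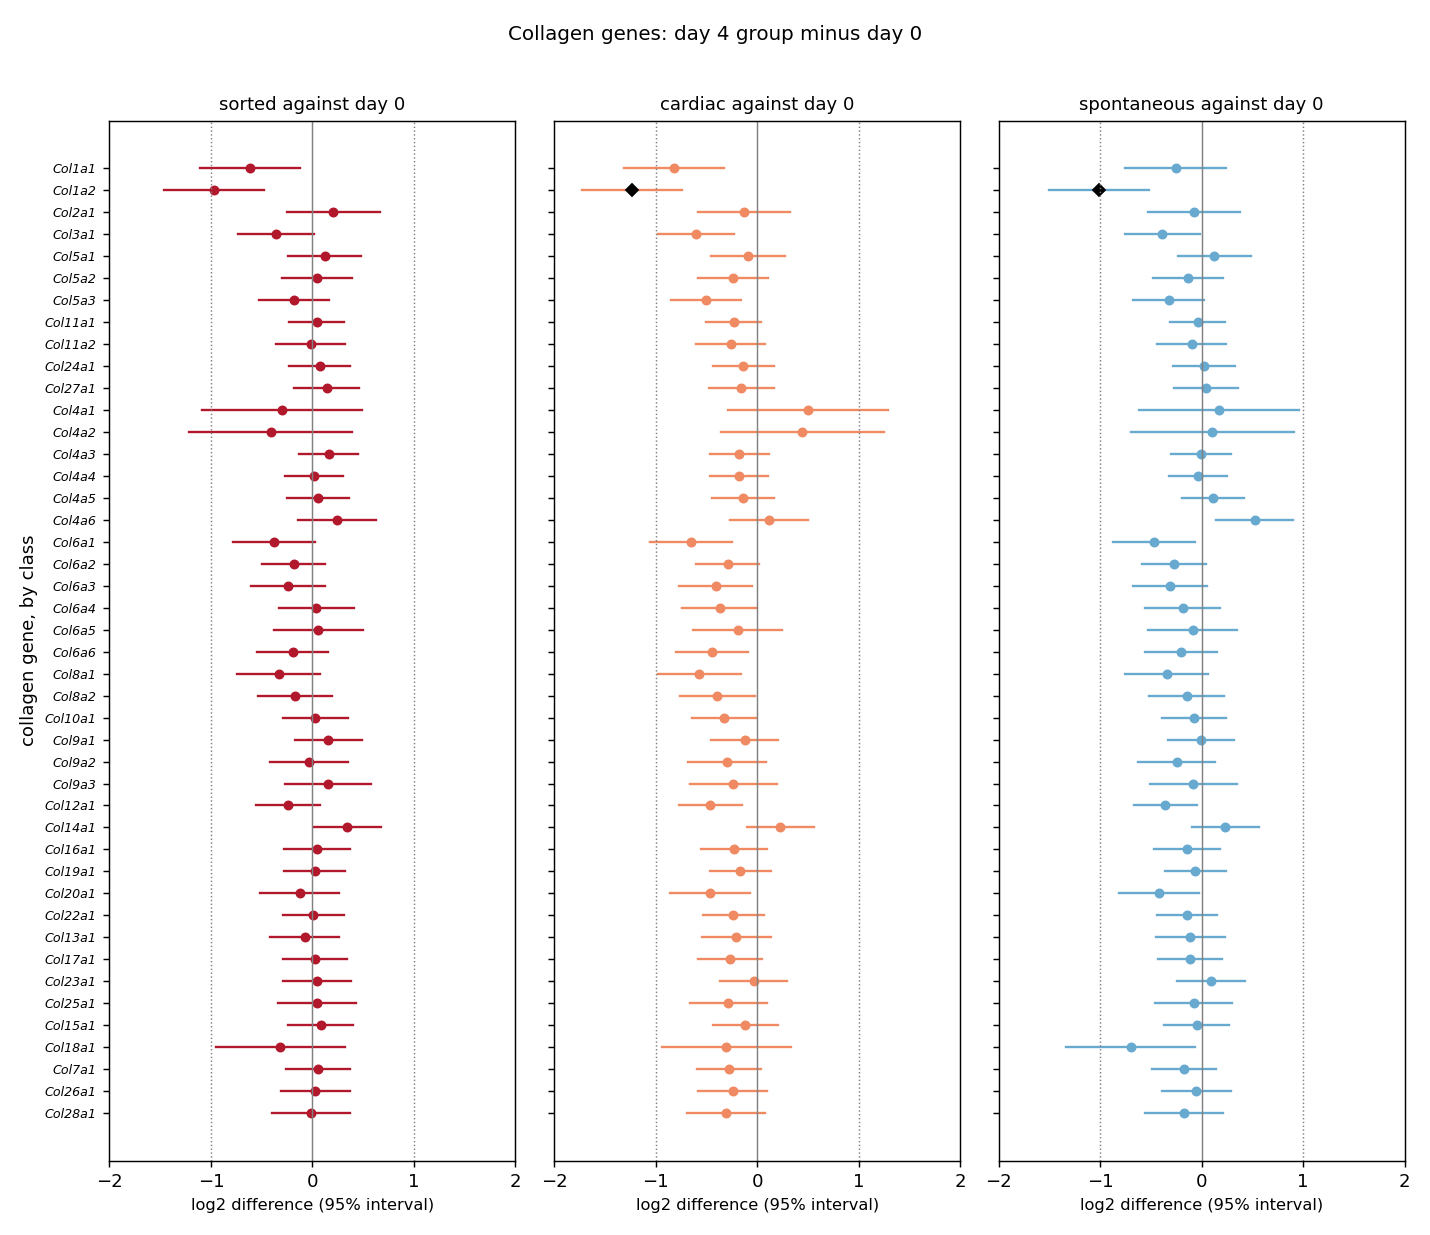
Points are limma log2 differences, day 4 group minus day 0, for each collagen gene in sorted CPC, cardiac and spontaneous cells, and bars are 95% intervals, with dotted lines at -1 and 1. Black diamonds mark the calls, which are Col1a2 in cardiac cells (-1.23) and in spontaneous cells (-1.01).

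Type I collagen, the main fibre protein of bone, skin and scar, is built from chains encoded by Col1a1 and Col1a2. Col1a2 read 7.49, 6.98 and 7.58 on the sorted CPC arrays, 6.99, 6.93 and 7.35 on the cardiac arrays, 7.36, 7.36 and 7.20 on the spontaneous arrays and 8.63, 7.76 and 8.57 on the day 0 arrays. Every day 4 array lay below every day 0 array, and the nearest approach was between sorted CPC replicate 3 and day 0 replicate 2, the lowest of its group. The log2 difference from day 0 was -1.23 in cardiac cells (SE 0.23, 2.34-fold lower, limma adjusted p = 0.00825) and -1.01 in spontaneous cells (SE 0.23, 2.02-fold lower, adjusted p = 0.0149). In sorted CPC it was -0.97 (SE 0.23, adjusted p = 0.027), which passed the p threshold and missed the size minimum. Without cardiac replicate 1 the cardiac difference was -1.18 (adjusted p = 0.0173), and without sorted CPC replicates 2 and 3 the difference of the remaining sorted array was -0.83 (adjusted p = 0.124, with that array assumed to vary like the other groups).

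The cardiac call of Col1a2 held with any 1 array left out. The spontaneous call did not. It was lost without day 0 replicate 1 (-0.86, adjusted p = 0.0726), day 0 replicate 3 (-0.89, adjusted p = 0.0571), spontaneous replicate 2 (-1.04, adjusted p = 0.0555) or spontaneous replicate 3 (-0.96, adjusted p = 0.0656). In sorted CPC, Col1a2 was called lower without day 0 replicate 2 (-1.25, adjusted p = 0.00733), sorted CPC replicate 1 (-1.04, adjusted p = 0.046) or sorted CPC replicate 3 (-1.09, adjusted p = 0.0215). With arrays weighted by quality neither call met the size minimum, at -0.99 in cardiac cells and -0.85 in spontaneous cells, and a test of differences beyond 1 called neither.

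Col1a1, the partner chain, read 7.53, 7.24 and 7.64 on the sorted CPC arrays, 6.99, 7.29 and 7.52 on the cardiac arrays, 7.35, 8.21 and 7.94 on the spontaneous arrays and 8.32, 7.74 and 8.20 on the day 0 arrays. The sorted CPC and cardiac arrays lay below all day 0 arrays, while spontaneous replicates 2 and 3 lay within the day 0 range. No Col1a1 difference from day 0 was called. It was -0.62 in sorted CPC (adjusted p = 0.154), -0.82 in cardiac cells (adjusted p = 0.051) and -0.26 in spontaneous cells (95% interval -0.75 to 0.24, adjusted p = 0.548). The Col1a1 signal minus the Col1a2 signal on the same array averaged 0.12 ± 0.12 in sorted CPC, 0.18 ± 0.18 in cardiac cells, 0.52 ± 0.47 in spontaneous cells and -0.23 ± 0.19 on day 0 (SD, n = 3 each). It was above all day 0 values on every day 4 array, but in spontaneous cells only by a near tie. Spontaneous replicate 1 was at -0.0166 and day 0 replicate 2 at -0.0183. An exact two-sided permutation test gave p = 0.1 in each of the 3 comparisons (Benjamini-Hochberg 0.1). That is the smallest that 3 arrays against 3 can give, and in spontaneous cells it rests on that near tie. The permutation test was added with the values known.

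Among the other fibrillar genes, Col3a1, which encodes the type III collagen of elastic tissues such as vessel walls, read 6.68, 6.34 and 6.84 on the sorted CPC arrays, 6.46, 6.04 and 6.62 on the cardiac arrays, 6.72, 6.58 and 6.47 on the spontaneous arrays and 6.89, 6.87 and 7.17 on the day 0 arrays. All 9 day 4 arrays were below the 3 day 0 arrays. None of the differences was called, at -0.36 in sorted CPC (adjusted p = 0.28), -0.60 in cardiac cells (adjusted p = 0.0558) and -0.39 in spontaneous cells (adjusted p = 0.188). Col5a3, a chain of the type V collagen found inside type I fibres, differed by -0.51 in cardiac cells (adjusted p = 0.0823) and -0.33 in spontaneous cells (adjusted p = 0.239). Col2a1, the collagen of cartilage, read 7.45, 7.18 and 8.21 on the sorted CPC arrays, 7.26, 7.11 and 7.46 on the cardiac arrays, 7.22, 7.41 and 7.35 on the spontaneous arrays and 7.41, 7.40 and 7.41 on the day 0 arrays. Sorted CPC replicate 3 stood above the rest. Over the 11 fibrillar genes the median difference from day 0 was 0.04 in sorted CPC, -0.24 in cardiac cells and -0.10 in spontaneous cells.

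**Figure D3:**
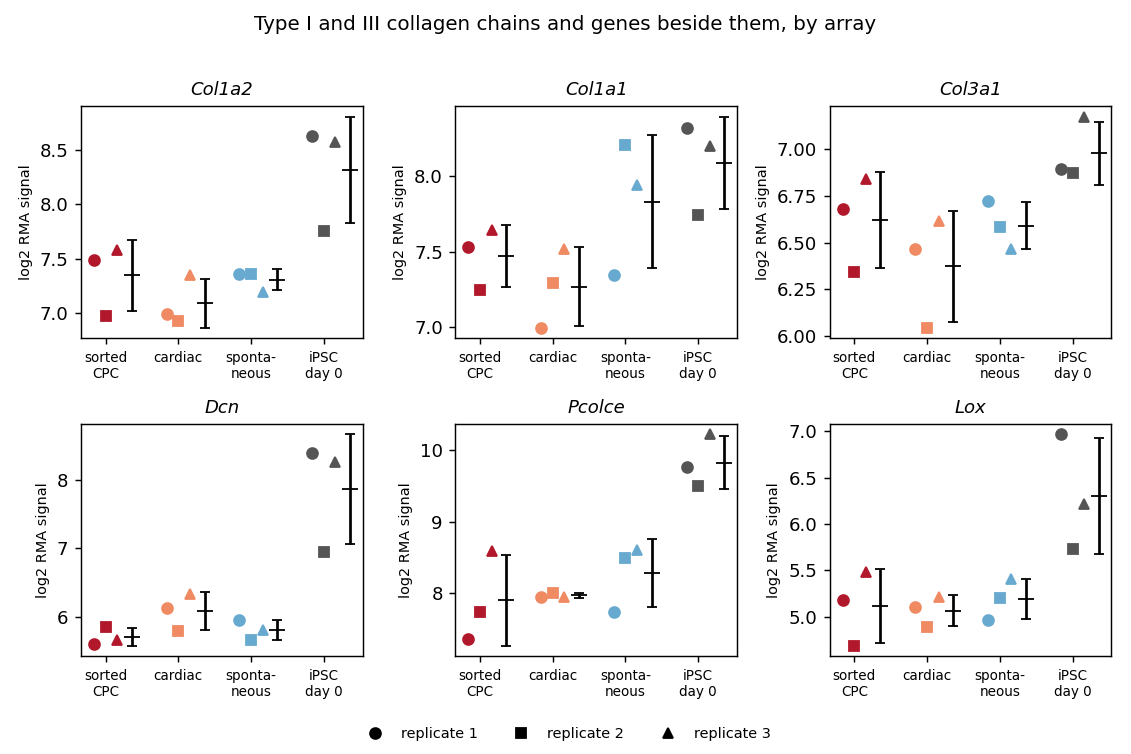
Each point is the log2 RMA signal of 1 array, with a symbol per replicate number and 1 panel per gene, and the bars are the group mean ± SD (n = 3), for sorted CPC, cardiac, spontaneous and day 0. Col1a2, Dcn, Pcolce and Lox are lower on all 9 day 4 arrays than on the day 0 arrays, Col1a1 overlaps in spontaneous cells, and day 0 replicate 2 is the lowest day 0 array for Col1a2, Col1a1, Dcn, Pcolce and Lox.

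Markers of fibroblasts, a main source of type I collagen in tissues, were read beside Col1a2. Of 12 fibroblast marker genes, Dcn, which encodes the collagen-binding proteoglycan decorin, was called lower in each comparison with day 0, and no other was called. Dcn read 5.60, 5.84 and 5.66 on the sorted CPC arrays, 6.13, 5.78 and 6.33 on the cardiac arrays, 5.96, 5.66 and 5.80 on the spontaneous arrays and 8.39, 6.95 and 8.27 on the day 0 arrays. Its log2 difference was -2.17 in sorted CPC (adjusted p = 0.00143), -1.79 in cardiac cells (adjusted p = 0.00391) and -2.06 in spontaneous cells (adjusted p = 0.00138), and it was called without the 3 libraries that stood apart too. Day 0 replicate 2 was the lowest day 0 array for 7 of the 12 fibroblast markers (58.3%), for Col1a1, Col1a2 and Col3a1 among 12 of the 44 collagen genes (27.3%), and for 30% of all genes. The mean signal of the 12 markers ran from 5.92 to 6.22 on sorted CPC arrays, 5.95 to 6.13 on cardiac arrays, 6.16 to 6.35 on spontaneous arrays and 6.28 to 6.64 on day 0 arrays. The fibroblast marker Lum, which encodes lumican, stayed dim, between 3.12 and 3.46 on all 12 arrays, and Vim, which encodes vimentin, was not called in any of the 3. limma gave an unadjusted p under 0.05 for 5 of the 12 in sorted CPC (19.3% of all genes), 6 in cardiac cells (22.4%) and 4 in spontaneous cells (24%). In that order, all 3 arrays lay below all day 0 arrays for 5, 6 and 4 markers (11.3%, 16.2% and 21.6% of all genes). They lay above for 1, 1 and 1 (10.2%, 12.8% and 19.4%). Postn, Thy1 and S100a4, like Dcn, were below day 0 on every day 4 array. Fbln1 went the other way. It read 9.63, 9.64 and 9.19 on the cardiac arrays and 9.30, 9.55 and 9.17 on the spontaneous arrays. On the day 0 arrays it read 9.12, 8.73 and 7.99. The median difference of the 12 markers was -0.32 in sorted CPC, -0.46 in cardiac cells and -0.0015 in spontaneous cells. Negative were 8, 10 and 6 of them (45.1%, 58.2% and 56.2% of all genes). The part of such cells in the Col1a2 result was not tested.

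Type IV collagen is the scaffold of basement membranes, and its most widespread form joins the chains of Col4a1 and Col4a2. These pairs of values, and those of Lama1, were singled out after they were seen. Col4a1 read 8.42, 8.60 and 9.42 on the sorted CPC arrays, 10.22, 8.85 and 9.76 on the cardiac arrays, 9.88, 9.02 and 8.94 on the spontaneous arrays and 8.67, 9.24 and 9.41 on the day 0 arrays. Col4a2 read 8.02, 8.29 and 9.04 on the sorted CPC arrays, 9.99, 8.45 and 9.48 on the cardiac arrays, 9.53, 8.76 and 8.60 on the spontaneous arrays and 8.50, 8.93 and 9.15 on the day 0 arrays. Both genes were highest on cardiac replicate 1 and spontaneous replicate 1 and lowest on sorted CPC replicate 1, and every group overlapped the others. The difference from day 0 of Col4a1 was -0.30 in sorted CPC (95% interval -1.09 to 0.49, adjusted p = 0.729), 0.50 in cardiac cells (-0.28 to 1.29, adjusted p = 0.421) and 0.17 in spontaneous cells (-0.62 to 0.95, adjusted p = 0.832), and for Col4a2 it was -0.41, 0.45 and 0.11 (adjusted p = 0.618, 0.482 and 0.901).

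The divergent pair varied little relative to each other. Col4a1 spanned 1.81 log2 units over the 12 arrays and Col4a2 spanned 1.97, while Col4a1 minus Col4a2 on the same array spanned 0.22, with an SD of 0.07 over arrays against 0.56 and 0.57 for the genes singly. The type I chains spanned 1.33 (Col1a1) and 1.70 (Col1a2), and their difference spanned 1.21. Of 9 chain pairs examined these were the smallest and the largest span of a difference. Col11a1 minus Col11a2, chains of a cartilage collagen, spanned 0.27 against 0.53 and 0.71 for the genes singly, and Col9a2 minus Col9a3 spanned 0.47 against 0.88 and 1.06. Of the 4 laminin genes in the list of type IV partners, Lama1 and Lamb1 peaked on the same arrays as the pair. Lama1 read 8.62, 9.25 and 10.31 on the sorted CPC arrays, 10.74, 9.14 and 10.15 on the cardiac arrays, 10.63, 9.27 and 9.13 on the spontaneous arrays and 9.75, 10.31 and 10.45 on the day 0 arrays. Lamb1, an uncalled laminin chain, read 10.09, 10.36 and 10.96 on the sorted CPC arrays, 11.35, 10.35 and 10.87 on the cardiac arrays, 11.19, 10.29 and 10.21 on the spontaneous arrays and 10.61, 10.97 and 10.88 on the day 0 arrays. Like Col4a1 and Col4a2, both laminin chains were highest on cardiac replicate 1 and spontaneous replicate 1 and lowest on sorted CPC replicate 1. Lamc1 was highest on cardiac replicate 1 (10.995) and then on day 0 replicate 3 (10.77), and Lama5 was highest on sorted CPC replicates 3 (9.56) and 2 (9.41), so neither followed that order.

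Parietal endoderm, the embryonic lineage known for thick basement membrane, was checked through 11 marker genes. Their mean signal was 8.44, 8.50 and 8.77 on the sorted CPC arrays, 9.59, 8.72 and 9.20 on the cardiac arrays, 9.31, 8.81 and 8.70 on the spontaneous arrays and 8.36, 8.72 and 8.76 on the day 0 arrays, so cardiac replicate 1 and spontaneous replicate 1 were again the highest. Sparc, Lama1 and Lamb1 of this list are also basement membrane genes. Called higher were 0 of the 11 in sorted CPC, 2 in cardiac cells (Dab2 and Gata4) and 2 in spontaneous cells (Gata4 and Sox17). Over all genes 0.787%, 1.26% and 1.99% were called higher in these comparisons. In sorted CPC 1 of the 11 had an unadjusted limma p under 0.05 (19.3% of all genes). Without the 3 libraries that stood apart 2 were higher (Gata4 and Gata6) and 1 lower (Sparc) in sorted CPC, 2 were higher in cardiac cells, and 3 were higher in spontaneous cells, with Dab2 added. Dab2, an endocytic adaptor, differed from day 0 by 1.95 in cardiac cells (adjusted p = 0.0166) and by 1.54 without cardiac replicate 1 (adjusted p = 0.0348). Gata4 and Sox17, transcription factors that heart and endoderm share between them, differed by 1.27 (adjusted p = 0.00967) and 1.04 (adjusted p = 0.00461) in spontaneous cells. The part of such cells in the type IV values was not tested.

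**Figure D4:**
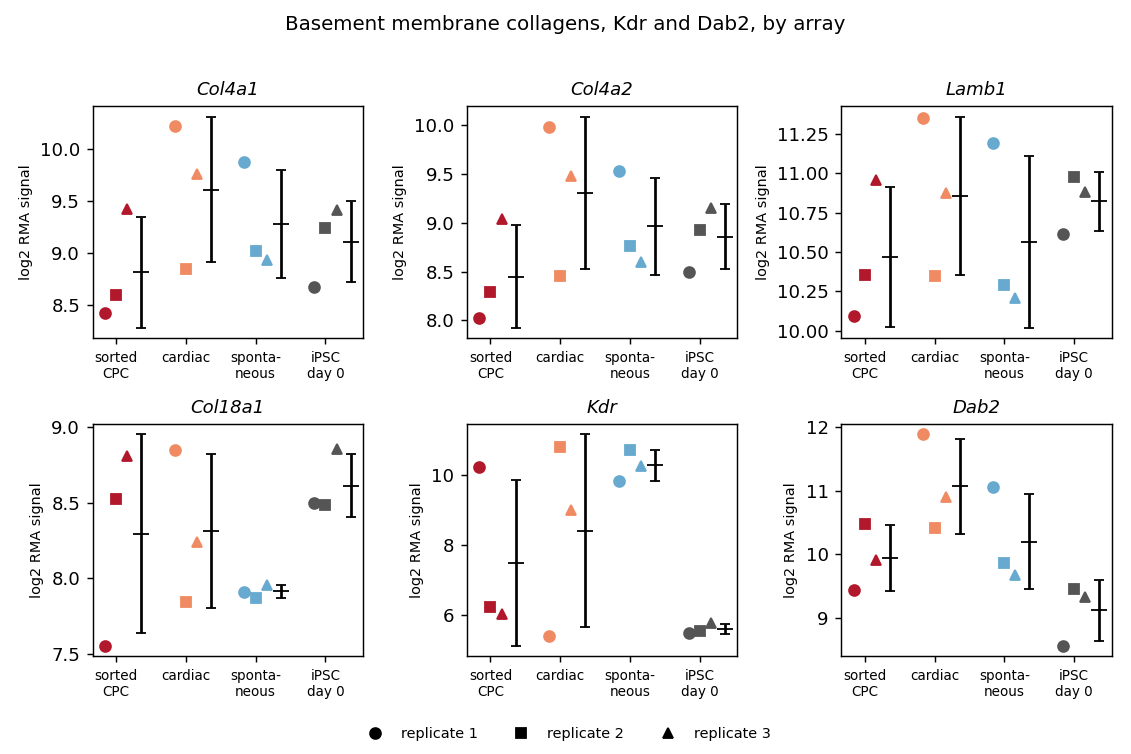
Each point is the log2 RMA signal of 1 array, with a symbol per replicate number and 1 panel per gene, and bars are the group mean ± SD (n = 3), for sorted CPC, cardiac, spontaneous and day 0. Col4a1, Col4a2, Lamb1 and Dab2 peak on cardiac replicate 1, where Kdr is at the day 0 level (5.42), and Col18a1 is lowest on sorted CPC replicate 1 (7.56).

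The other type IV chains build the networks of specialised membranes such as those of the kidney filter. Col4a6 read 6.45, 5.92 and 6.36 on the sorted CPC arrays, 5.998, 6.25 and 6.11 on the cardiac arrays, 6.18, 6.88 and 6.51 on the spontaneous arrays and 6.01, 6.08 and 5.91 on the day 0 arrays. It was the only collagen gene with all 3 arrays of a day 4 group above all day 0 arrays, in spontaneous cells, where 19.4% of all genes did so. That difference was 0.52 (95% interval 0.14 to 0.90, adjusted p = 0.0847) and was not called. Col4a3 read 6.60, 6.30 and 6.77 on the sorted CPC arrays, 6.22, 6.04 and 6.41 on the cardiac arrays, 6.40, 6.41 and 6.35 on the spontaneous arrays and 6.43, 6.39 and 6.37 on the day 0 arrays. Its groups overlapped. Col4a5 and Col4a6 are also neighbours, with starts 1343 bases apart in the RefSeq windows, and their difference on the same array spanned 0.59 against 0.59 and 0.97 for the genes singly. Col4a3 and Col4a4 are neighbours too, and the stretches annotated to the genes overlap on chromosome 1, between 82586921 and 82587034. Their difference spanned 0.37 against 0.73 and 0.55 singly, so an overlap did not always go with a span as small as that of Col4a1 and Col4a2.

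Type VI collagen forms beaded filaments between cells and fibres, and all 6 of its genes had negative differences from day 0 in cardiac and in spontaneous cells, with a median of -0.39 and -0.24, and 4 of 6 were negative in sorted CPC, with a median of -0.19. Col6a1 read 7.12, 6.78 and 7.60 on the sorted CPC arrays, 6.98, 6.70 and 6.98 on the cardiac arrays, 7.05, 7.22 and 6.95 on the spontaneous arrays and 7.72, 7.44 and 7.47 on the day 0 arrays. The cardiac and spontaneous arrays lay below the day 0 arrays, and sorted CPC replicate 3 lay among them. Its difference was -0.65 in cardiac cells (95% interval -1.06 to -0.25, adjusted p = 0.0558) and -0.47 in spontaneous cells (adjusted p = 0.144), neither called. The F test passed Col6a1 without sorted CPC replicates 2 and 3. Col6a6 read 7.34, 6.87 and 7.38 on the sorted CPC arrays, 7.01, 6.70 and 7.14 on the cardiac arrays, 7.36, 7.16 and 7.06 on the spontaneous arrays and 7.45, 7.40 and 7.32 on the day 0 arrays. On this probe set the cardiac arrays alone were all below day 0. The dimmer Col6a6 probe set read 5.61, 5.34 and 5.60 on the cardiac arrays and 5.79, 5.63 and 5.52 on the day 0 arrays, which overlapped. The probe sets of Col6a5 disagreed as well. The one used read 6.77, 6.43 and 7.24 on the sorted CPC arrays, 6.77, 6.15 and 6.77 on the cardiac arrays, 6.74, 6.62 and 6.63 on the spontaneous arrays and 6.80, 6.78 and 6.68 on the day 0 arrays. The dimmer one read 5.24, 4.94 and 5.47 on the sorted CPC arrays, 5.48, 5.25 and 5.34 on the cardiac arrays, 5.10, 4.75 and 5.06 on the spontaneous arrays and 5.60, 5.92 and 5.85 on the day 0 arrays. In the dimmer one all day 4 arrays lay below day 0, and in the one used they overlapped in each group.

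The short-chain collagens VIII and X form hexagonal lattices, type VIII in vessels and the eye and type X in growth plate cartilage. Col8a1 read 6.10, 5.52 and 6.33 on the sorted CPC arrays, 5.71, 5.54 and 5.99 on the cardiac arrays, 5.95, 5.88 and 6.08 on the spontaneous arrays and 6.50, 6.10 and 6.34 on the day 0 arrays. The cardiac and spontaneous arrays lay below day 0, with differences of -0.57 (adjusted p = 0.0961) and -0.34 (adjusted p = 0.302). Col10a1 read 5.57, 5.07 and 5.29 on the sorted CPC arrays, 5.01, 4.72 and 5.13 on the cardiac arrays, 5.08, 5.29 and 5.24 on the spontaneous arrays and 5.08, 5.34 and 5.42 on the day 0 arrays. Its groups overlapped.

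Fibril-associated collagens sit on the surface of fibres. Col12a1, a chain known from tendon and other loaded tissue, read 5.08, 4.82 and 5.19 on the sorted CPC arrays, 4.88, 4.53 and 5.01 on the cardiac arrays, 4.93, 4.94 and 4.87 on the spontaneous arrays and 5.50, 5.07 and 5.24 on the day 0 arrays. Cardiac and spontaneous arrays were below day 0, with differences of -0.46 (adjusted p = 0.0799) and -0.36 (adjusted p = 0.147), and neither was called. Col20a1 read 6.89, 6.46 and 6.84 on the sorted CPC arrays, 6.49, 6.19 and 6.48 on the cardiac arrays, 6.35, 6.60 and 6.34 on the spontaneous arrays and 7.07, 7.05 and 6.44 on the day 0 arrays. Every group overlapped day 0, whose replicate 3 was low. Col14a1 was the fibril-associated gene with positive differences in all 3 comparisons, at 0.35 in sorted CPC (95% interval 0.02 to 0.67, adjusted p = 0.237), 0.23 in cardiac cells and 0.23 in spontaneous cells (adjusted p = 0.387 and 0.397). The differences of the 9 genes from day 0 ran from -0.24 to 0.35 in sorted CPC, -0.47 to 0.23 in cardiac cells and -0.42 to 0.23 in spontaneous cells.

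The 4 transmembrane collagens anchor epithelial and nerve cells to the matrix, and none was called. Col17a1, a component of the hemidesmosomes of skin, read 6.62, 6.21 and 6.62 on the sorted CPC arrays, 6.30, 5.91 and 6.36 on the cardiac arrays, 6.29, 6.34 and 6.38 on the spontaneous arrays and 6.55, 6.41 and 6.41 on the day 0 arrays. Its cardiac and spontaneous arrays were all below day 0, with differences of -0.27 (adjusted p = 0.3) and -0.12 (adjusted p = 0.681). Col25a1 read 6.50, 6.02 and 6.62 on the sorted CPC arrays, 6.15, 5.67 and 6.33 on the cardiac arrays, 6.25, 6.33 and 6.18 on the spontaneous arrays and 6.33, 6.32 and 6.35 on the day 0 arrays. Its groups overlapped.

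Of the multiplexins, Col18a1 encodes a basement membrane collagen from which endostatin, an inhibitor of vessel growth, is cut. It read 7.56, 8.53 and 8.81 on the sorted CPC arrays, 8.85, 7.84 and 8.24 on the cardiac arrays, 7.91, 7.87 and 7.96 on the spontaneous arrays and 8.50, 8.49 and 8.86 on the day 0 arrays. The spontaneous arrays were all below day 0, with a difference of -0.70 (95% interval -1.33 to -0.07, adjusted p = 0.163), without a call. The libraries labelled sorted CPC replicates 2 and 3 and cardiac replicate 1, which had Kdr near day 0, were also those of their groups within the day 0 range of Col18a1. Without sorted CPC replicates 2 and 3 the remaining sorted array differed by -1.06, with that array assumed to vary like the other groups. The difference was the same -1.06 without cardiac replicate 1 as well. Col18a1 was called lower in this last setting and not in the first. Since cardiac replicate 1 is in neither group compared, that call reflects a changed estimate of spread and not a larger difference. In that last setting the differences of cardiac and spontaneous cells were -0.57 (adjusted p = 0.0341) and -0.70 (adjusted p = 0.0055), under the size minimum.

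Col15a1, the other multiplexin, read 6.80, 6.44 and 6.82 on the sorted CPC arrays, 6.60, 6.21 and 6.67 on the cardiac arrays, 6.56, 6.65 and 6.46 on the spontaneous arrays and 6.67, 6.63 and 6.52 on the day 0 arrays, and its groups overlapped. Col7a1, which encodes the anchoring fibrils under the epidermis, read 7.35, 7.04 and 7.55 on the sorted CPC arrays, 7.02, 6.76 and 7.16 on the cardiac arrays, 7.08, 7.12 and 7.05 on the spontaneous arrays and 7.25, 7.29 and 7.23 on the day 0 arrays. Its cardiac and spontaneous arrays were below day 0, with differences of -0.27 (adjusted p = 0.286) and -0.17 (adjusted p = 0.528). Col28a1 read 6.08, 5.48 and 6.19 on the sorted CPC arrays, 5.84, 5.32 and 5.72 on the cardiac arrays, 5.85, 5.73 and 5.68 on the spontaneous arrays and 5.85, 6.03 and 5.90 on the day 0 arrays. Cardiac and spontaneous arrays lay below day 0 here too, with differences of -0.30 (adjusted p = 0.33) and -0.17 (adjusted p = 0.607).

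Between the day 4 groups limma called 0 of the 44 collagen genes. At an unadjusted p under 0.05 there were 7 for sorted CPC against cardiac cells (15.9%, against 15.7% of all genes), 0 for sorted CPC against spontaneous cells (11.6% of all genes) and 2 for cardiac against spontaneous cells (4.55%, against 3.73%). Of all genes 0, 1 (0.00502%) and 0 were called in these comparisons, so the collagen counts do not stand apart from the background. Without the 3 libraries that stood apart the collagen counts were again 0, while 0.0451% of all genes were called higher and 0.532% lower for sorted CPC against cardiac cells, and 0.0903% and 0.461% for sorted CPC against spontaneous cells. The median collagen difference was 0.25 for sorted CPC minus cardiac cells, where the median of all genes was 0.03. It was 0.10 for sorted CPC minus spontaneous cells (all genes 0.03) and -0.15 for cardiac minus spontaneous cells (all genes -0.02). These medians moved with single arrays. Sorted CPC minus cardiac was 0.41 without sorted CPC replicate 2, 0.14 without replicate 3 and 0.15 without cardiac replicate 2. Sorted CPC minus spontaneous was 0.04, 0.24 and 0.0003 without sorted CPC replicate 1, 2 or 3, and 0.20 without the 3 libraries that stood apart. Cardiac minus spontaneous was -0.03 without cardiac replicate 2. For 0 of the 44 collagen genes did all sorted CPC arrays lie above or below all cardiac arrays, where 7.79% and 5.3% of all genes did so. Against the spontaneous arrays it was again 0, where 9.44% of all genes lay above and 10.2% below. For 0 collagen genes were all cardiac arrays above all spontaneous arrays (5.23% of all genes), and 5 (Col4a4, Col4a5, Col8a2, Col11a1 and Col24a1) were below all spontaneous arrays on all cardiac arrays, where 3.77% of all genes were. For Col1a2 the difference was 0.26 (95% interval -0.23 to 0.75) for sorted CPC minus cardiac cells, 0.04 (-0.45 to 0.54) for sorted CPC minus spontaneous cells and -0.22 (-0.71 to 0.28) for cardiac minus spontaneous cells.

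Some arrays lay low or high for most collagen genes. Cardiac replicate 2 was the lowest of the 12 arrays for 32 of the 44 collagen genes (72.7%), and for 25.8% of all genes and 43.9% of the genes dimmer than the median gene. Sorted CPC replicate 3 was the highest array for 22 collagen genes (50%), and for 18.2% of all genes and 26.5% of the dimmer genes. Relative to the day 0 mean, the median collagen gene lay at 0.11, -0.30 and 0.19 on the sorted CPC arrays and at -0.17, -0.49 and -0.10 on the cardiac arrays. On the spontaneous arrays it lay at -0.09, -0.09 and -0.16. The median of all genes stayed between -0.06 and 0.06 on every array. Within groups the collagen genes spread more on sorted CPC and cardiac arrays, with a median SD of 0.28 and 0.22, than on spontaneous and day 0 arrays, with 0.09 and 0.09. For all genes these medians were 0.20, 0.18, 0.10 and 0.12. Of the 44, 17 had all 4 group means below the median gene signal of 6.60, as had 45.6% of all genes. Without cardiac replicate 2 the median collagen difference of cardiac cells from day 0 was -0.14, against -0.24 with it, and the median of all genes was -0.03, against -0.05.

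**Figure D5:**
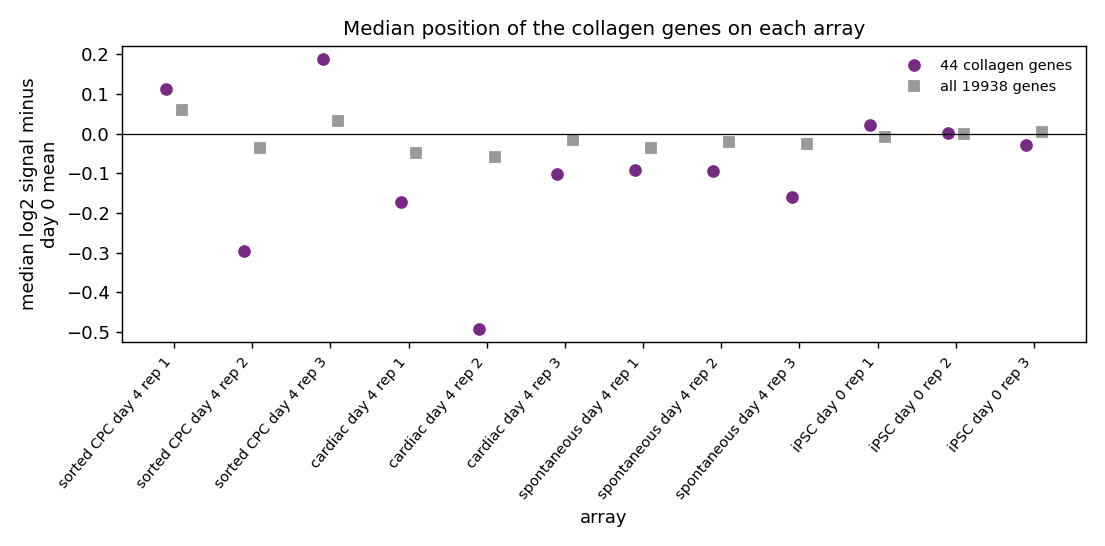
For each array, the circle is the median over the 44 collagen genes, and the square the median over all 19938 genes, of the log2 RMA signal minus the day 0 mean. Collagen medians run from -0.49 on cardiac replicate 2 to 0.19 on sorted CPC replicate 3, while the squares stay near 0.

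Collagen chains are hydroxylated on proline and lysine before they fold. Of 15 genes of this step, limma called 0 higher and 2 lower in sorted CPC, 1 higher and 0 lower in cardiac cells, and 1 higher and 0 lower in spontaneous cells. In that order, 0.787%, 1.26% and 1.99% of all genes were called higher and 1.32%, 0.943% and 1.57% lower. These shares are the background for the lists that follow too. The gene of this step that rose was P3h2, a prolyl 3-hydroxylase known to act on type IV collagen. P3h2 read 9.04, 7.08 and 6.86 on the sorted CPC arrays, 7.95, 8.65 and 8.16 on the cardiac arrays, 8.48, 8.31 and 7.81 on the spontaneous arrays and 6.11, 6.17 and 6.61 on the day 0 arrays. All day 4 arrays were above day 0, by 1.36 in sorted CPC (adjusted p = 0.101), 1.95 in cardiac cells (adjusted p = 0.0212) and 1.90 in spontaneous cells (adjusted p = 0.0163). Without sorted CPC replicates 2 and 3, P3h2 was called higher in the remaining sorted array too (2.74, adjusted p = 0.0012), and 3 genes were then lower, with Crtap, a partner of the prolyl 3-hydroxylases, added (-1.06, adjusted p = 0.00733).

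Plod1, a lysyl hydroxylase, fell in sorted CPC. It read 8.26, 8.51 and 8.18 on the sorted CPC arrays, 9.12, 8.71 and 8.84 on the cardiac arrays, 8.83, 8.78 and 8.73 on the spontaneous arrays and 9.62, 9.56 and 9.55 on the day 0 arrays. No group overlapped day 0, and the difference was -1.26 in sorted CPC (adjusted p = 0.000544), -0.69 in cardiac cells (adjusted p = 0.0109) and -0.80 in spontaneous cells (adjusted p = 0.0038), the last pair under the size minimum. P4ha2, a catalytic chain of prolyl 4-hydroxylase, fell by 1.22 in sorted CPC (adjusted p = 0.0174), and both calls held without sorted CPC replicates 2 and 3. P4hb, the uncalled partner chain of that enzyme, differed by -0.20 in sorted CPC, 0.12 in cardiac cells and 0.02 in spontaneous cells (adjusted p = 0.215, 0.397 and 0.927).

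In folding and export, 10 genes were measured, and limma called 0 higher and 1 lower in sorted CPC, 1 higher and 1 lower in cardiac cells, and 1 higher and 1 lower in spontaneous cells. Mia2, which helps load large cargo into transport vesicles, read 5.67, 6.21 and 5.56 on the sorted CPC arrays, 8.18, 6.61 and 7.07 on the cardiac arrays, 6.69, 6.26 and 5.93 on the spontaneous arrays and 4.98, 5.07 and 5.25 on the day 0 arrays. It rose in cardiac cells by 2.19 (adjusted p = 0.00219) and in spontaneous cells by 1.19 (adjusted p = 0.0349). Without cardiac replicate 1, the highest array, the cardiac difference was 1.74 (adjusted p = 0.00123). Tmem38b, an ion channel of the endoplasmic reticulum needed for normal collagen synthesis in bone, fell by 1.49 in sorted CPC, by 1.23 in cardiac cells and by 1.40 in spontaneous cells (adjusted p = 0.00461, 0.0131 and 0.00473). Sparc, a collagen-binding matrix protein, was not called and differed by -0.35, 0.25 and -0.05 in sorted CPC, cardiac and spontaneous cells. In sorted CPC 3 genes of this list were lower without the 3 libraries that stood apart, which were Tmem38b, Sec24d (-1.58, adjusted p = 0.000679) and Sparc (-1.09, adjusted p = 0.0239).

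Outside the cell the end pieces of procollagen are cut off and the fibres are cross-linked. Of 7 genes of propeptide removal 1 was called, and lower in all 3 comparisons. It was Pcolce, whose product enhances the cutting of fibrillar procollagens. Pcolce read 7.35, 7.73 and 8.59 on the sorted CPC arrays, 7.94, 8.001 and 7.94 on the cardiac arrays, 7.73, 8.49 and 8.60 on the spontaneous arrays and 9.76, 9.50 and 10.23 on the day 0 arrays. No day 4 array reached day 0, and Pcolce fell by 1.94 in sorted CPC (adjusted p = 0.00297), by 1.87 in cardiac cells (adjusted p = 0.00334) and by 1.56 in spontaneous cells (adjusted p = 0.00687). Bmp1, the protease it assists, was not called and differed by 0.07, 0.23 and 0.44 in sorted CPC, cardiac and spontaneous cells (adjusted p = 0.887, 0.483 and 0.181).

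Of 5 cross-linking genes limma called 0 higher and 1 lower in sorted CPC, 1 higher and 1 lower in cardiac cells, and 1 higher and 1 lower in spontaneous cells. Lox, which encodes lysyl oxidase, the cross-linker of fibrillar collagen, read 5.18, 4.69 and 5.48 on the sorted CPC arrays, 5.10, 4.89 and 5.21 on the cardiac arrays, 4.97, 5.21 and 5.40 on the spontaneous arrays and 6.96, 5.73 and 6.21 on the day 0 arrays. Lox fell by 1.18 in sorted CPC (adjusted p = 0.0214), by 1.23 in cardiac cells (adjusted p = 0.0172) and by 1.11 in spontaneous cells (adjusted p = 0.0196), and the sorted CPC call was lost without replicates 2 and 3 (-1.12, adjusted p = 0.0813). Pxdn, which encodes peroxidasin, the cross-linker of type IV collagen, read 8.68, 8.64 and 8.36 on the sorted CPC arrays, 9.21, 9.22 and 8.94 on the cardiac arrays, 9.08, 8.82 and 8.48 on the spontaneous arrays and 7.71, 7.45 and 7.79 on the day 0 arrays. All day 4 arrays were above day 0, by 1.47 in cardiac cells (adjusted p = 0.000725) and 1.14 in spontaneous cells (adjusted p = 0.00184), and by 0.91 in sorted CPC (adjusted p = 0.00858), under the size minimum. Without sorted CPC replicates 2 and 3 the sorted CPC difference was 1.03 and was called (adjusted p = 0.0246).

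Of 9 receptor genes for collagen limma called 0 in each comparison with day 0. An unadjusted limma p under 0.05 was found for 3 in sorted CPC (19.3% of all genes), 2 in cardiac cells (22.4%) and 2 in spontaneous cells (24%). Ddr2, a receptor kinase for fibrillar collagen chosen here after its values were seen, read 5.85, 5.74 and 5.90 on the sorted CPC arrays, 5.79, 5.56 and 5.85 on the cardiac arrays, 5.79, 5.82 and 5.96 on the spontaneous arrays and 6.88, 6.54 and 6.55 on the day 0 arrays. It lay below day 0 on every day 4 array, with differences of -0.83 (adjusted p = 0.00277), -0.92 (adjusted p = 0.00136) and -0.80 (adjusted p = 0.00244) in sorted CPC, cardiac and spontaneous cells, under the size minimum. Itgb1, the common chain of the collagen-binding integrins, differed by 0.30, 0.22 and 0.34 (adjusted p = 0.241, 0.348 and 0.141). The integrin chain Itga1 was higher in sorted CPC without the 3 libraries that stood apart (1.14, adjusted p = 0.0221).

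Among 12 genes of collagen breakdown and its inhibitors, limma called 0 higher and 2 lower in sorted CPC, 0 higher and 1 lower in cardiac cells, and 1 higher and 1 lower in spontaneous cells. Timp1, an inhibitor of matrix metalloproteinases, read 6.24, 7.07 and 7.51 on the sorted CPC arrays, 7.68, 7.30 and 7.38 on the cardiac arrays, 7.31, 7.38 and 7.38 on the spontaneous arrays and 9.46, 8.87 and 9.41 on the day 0 arrays. Timp1 fell by 2.31 in sorted CPC (adjusted p = 0.000703), by 1.80 in cardiac cells (adjusted p = 0.00213) and by 1.89 in spontaneous cells (adjusted p = 0.00121). Timp2, a related inhibitor, fell by 1.33 in sorted CPC (adjusted p = 0.0404). Mmp14, a membrane-bound collagenase, read 9.20, 8.51 and 8.57 on the sorted CPC arrays, 8.08, 9.42 and 8.86 on the cardiac arrays, 9.16, 9.52 and 9.34 on the spontaneous arrays and 7.83, 7.59 and 8.26 on the day 0 arrays. It rose in spontaneous cells by 1.45 (adjusted p = 0.00967). The cardiac difference was 0.89 (adjusted p = 0.093), and it was called at 1.25 without cardiac replicate 1, the array that overlapped day 0 (adjusted p = 0.0112). Mmp14 was higher in sorted CPC too without the 3 libraries that stood apart (1.304, adjusted p = 0.00858), and without sorted CPC replicates 2 and 3 Timp2 was lower in cardiac cells (-1.09, adjusted p = 0.0315).

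Of 8 partners of type IV collagen in basement membranes, limma called 1 lower in each comparison with day 0 and 0 higher. It was Nid1, which encodes nidogen, the link between the laminin and collagen networks. Nid1 read 6.89, 7.52 and 7.07 on the sorted CPC arrays, 8.90, 7.96 and 7.93 on the cardiac arrays, 7.96, 7.80 and 7.79 on the spontaneous arrays and 9.60, 9.30 and 9.24 on the day 0 arrays. All day 4 arrays were below day 0, and Nid1 fell by 2.22 in sorted CPC (adjusted p = 0.000544), by 1.11 in cardiac cells (adjusted p = 0.0176) and by 1.53 in spontaneous cells (adjusted p = 0.00244). Without cardiac replicate 1 the cardiac difference was -1.43 (adjusted p = 0.00109). In sorted CPC 3 of the 8 were lower without the 3 libraries that stood apart, which were Nid1, the related Nid2 (-1.12, adjusted p = 0.00235) and the laminin chain Lamc1 (-1.63, adjusted p = 0.0318).

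Other cell types that such cultures could hold were read from marker lists. Of 7 endothelial genes 1, Pecam1, was lower in each comparison with day 0 and none was higher. The mean signal of the 7 ran from 5.55 to 5.75 on sorted CPC arrays, 5.42 to 5.89 on cardiac arrays, 5.43 to 5.56 on spontaneous arrays and 6.04 to 6.10 on day 0 arrays. Pecam1 differed from day 0 by -2.37 in sorted CPC, -1.98 in cardiac cells and -2.57 in spontaneous cells. The median differences of the 7 genes were -0.12, -0.30 and -0.18, so much of the fall in that mean came from Pecam1. Of 6 cartilage genes Matn3 was lower in spontaneous cells and no other call was made. Without the 3 libraries that stood apart Matn3 was also lower in sorted CPC (-1.08, adjusted p = 0.012), and Hapln1 was higher in cardiac cells (1.28, adjusted p = 0.0297). Of 5 epithelial genes 2 were higher in sorted CPC (Krt8 and Cldn6), and 3 in cardiac and 3 in spontaneous cells (Krt8, Krt18 and Cldn6). Without sorted CPC replicates 2 and 3 and cardiac replicate 1 the sorted differences of Krt8 and Cldn6 were 0.77 (adjusted p = 0.184) and 0.50 (adjusted p = 0.424), and 1 epithelial gene, Cdh1, was lower (-1.66, adjusted p = 0.00649). Of 7 pluripotency genes 5, 5 and 6 were lower in sorted CPC, cardiac and spontaneous cells, and without the 3 libraries that stood apart 6, 6 and 7 were. Of 6 early mesoderm genes 1, 1 and 3 were higher with all arrays, and without those libraries 5 were in cardiac and 5 in spontaneous cells. On the 1 sorted array then left, each of the 6 lay above all day 0 arrays. Kdr, for which those libraries were singled out, is in this list, as is Pdgfra, so the change in these counts is not independent of that choice.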

How the data were processed

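Total RNA was isolated on silica columns, per the labels' protocols. The deposited table holds log2 signals of 35557 probe sets on 12 arrays, which, per the submitters' processing notes, the authors made with Expression Console 1.3.1 by RMA (background correction, quantile normalisation, probe summary). Log2 was inferred from the values (1.87 to 13.87). For the probes, a genome build was not given in the sources used here. Precision is limited by the number of arrays. RMA pulls probe sets near background towards one level, so differences of dim genes are understated.

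The platform annotation listed 23410 probe sets, of which 21789 had 1 symbol, 1621 had several and were left out, and 12147 were not listed. The brightest probe set by mean stood for each of 19938 genes, of which 999 had several. limma 3.58.1 in R 4.3.3 fitted group means over all 12 arrays (lmFit, eBayes with an intensity trend, two-sided, 8 residual and 5.01 prior degrees of freedom), with Benjamini-Hochberg adjustment over all genes for each of 6 comparisons. Calls needed an adjusted p under 0.05 and a log2 difference of at least 1. The fit was tested on simulated data with noise drawn separately for each gene. Shifts shared by many genes of an array were not part of that test, so it cannot speak to them. Alternatives were other scalings, priors, filters and size minimums, array weights, the replicate block, only the arrays compared, and arrays left out. No array was a copy of another (highest correlation 0.9966).

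The collagen members, classes and lists were chosen with earlier results of these data known. Values by array were given for called collagen genes and partner chains, and for up to 2 uncalled members per class by highest F statistic. Of the other lists, up to 3 called genes by largest difference and the brightest uncalled gene were eligible. Genes named outside this rule, which are Col2a1, Col4a1, Col4a2, Col4a4, Col5a3, Col9a2, Col9a3, Col11a1, Col11a2, Col14a1, Ddr2, Fbln1, Lama1, Lama5, Lamc1, Lum, Postn, S100a4, Thy1 and genes called only with libraries left out, were chosen after their values were seen.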

Additional observations from a re-analysis of the deposited data

How the results depend on the processing

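For each comparison 26 alternatives gave 179 counts of called collagen genes, of which 159 equalled the reported count or lay within 1.5 times it. The counts between day 4 groups were 0 throughout and are among the 159. Array weights gave 0 in cardiac and 0 in spontaneous cells against day 0, a test of differences beyond 1 gave 0 and 0, and centring arrays on their medians gave 0 in spontaneous cells (Col1a2 at -0.9985, against a minimum of 1). With no minimum difference 1 was called in sorted CPC (Col1a2), and without cardiac replicate 1 and sorted CPC replicates 2 and 3 it was 1 (Col18a1). The F test passed 3 with array weights (Col1a2, Col4a6 and Col6a1), 2 without sorted CPC replicates 2 and 3 (Col1a2 and Col6a1) and 3 without cardiac replicate 1 and sorted CPC replicates 2 and 3 (Col1a2, Col6a1 and Col18a1). With single arrays left out, the counts ran from 0 to 1 in sorted CPC and in spontaneous cells, stayed at 1 in cardiac cells and ran from 0 to 2 in the F test. The cause of these changes was not tested, other than that fewer arrays enter. Of 338 differences of named genes 325 kept their direction and their side of the threshold, 9 lost the call, 4 gained it and 0 reversed. The 9 losses were all of Col1a2, with 7 of 26 in spontaneous cells and 2 of 26 in cardiac cells. The 4 gains were Col1a2 in sorted CPC. Most of the 338 were of differences not called in the reported fit, which had no call to lose. The replicate block gave 0, 1 and 1 called collagen genes in sorted CPC, cardiac and spontaneous cells and changed no call. The replicate numbers gave no clear sign of a pairing of the arrays. Correlations of the deviations of same-numbered arrays ran from -0.38 to 0.31, with 6 of 18 pairs over 0.1, and 5 of 12 arrays correlated best with their own number. Deviations from means of 3 arrays cannot exclude a pairing, and the labels leave it open. Leaving out dim genes kept 10848 genes and 27 collagen genes. Only 3 arrays in each group limit what differences could pass.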
